A study of Mus musculus with 10 samples.

Results

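T cell receptor β chains of bulk dermal T cells from Tcrd-/- mice were compared with those of Tcrd-/- lymph node T cells. These were 3 of the 10 samples of the series: dermal A, dermal B and 1 library from peripheral lymph node (pLN), chosen by their labels. Dermal A held 235, dermal B 77 and the lymph node 26693 clonotypes. The lists of all 10 samples held 29548 entries, with a clonotype counted once for each list and a γ chain library included. A clonotype is a V segment (TRBV), a J segment (TRBJ) and the nucleotide sequence of the CDR3, the loop that most contacts antigen.

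All 3 libraries came from B6.129P2-Tcrdtm1Mom/J mice, which have no functional Tcrd gene and so no γδ T cells. The labels give no age, sex or treatment. Cells were sorted as live and positive for CD45, CD3 and TCRβ, from ear skin dermis or from lymph node, without any further subset gate. Each library was a pool of 5 to 18 animals, and nothing says how animals were divided, so no value per animal exists. Only receptor transcripts were measured, so no other marker of the sorted cells could be checked. All listed clonotypes were in frame, but some had ends that did not match their assigned mouse segments, as described below. The segment tests also used 3 epidermal Tcrd-/- libraries (labelled DETC, sorted as high for CD3 and TCRβ) to estimate spread. For overlap and for cysteine, other skin libraries of the series were also counted, including a dermal one from wild-type (WT) mice.

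Each β chain is assembled in the thymus by joining 1 TRBV, 1 TRBD and 1 TRBJ segment. At both joins, nucleases trim the segment ends and terminal transferase adds untemplated bases, so the CDR3 differs between T cell clones. A lymph node holds mostly naive T cells with many small clones, whereas T cells resident in skin are often clonally expanded. Some T cells of fixed specificity prefer certain V segments: invariant NKT cells use mostly TRBV13-2, TRBV29 or TRBV1, and mucosal-associated invariant T (MAIT) cells often use TRBV19 or TRBV13-3. Those cells are defined by their α chain, which was not sequenced here.

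The largest dermal clonotypes are shown first because they carry most of the read shares described below. The 5 with most reads in each dermal library follow, 5′ to 3′ from the codon of the conserved cysteine to that of the closing phenylalanine. Lower case marks bases that match the assigned TRBV, the assigned TRBJ or a TRBD segment of the GENCODE M21 annotation, and capitals mark bases that match none.
dermal A, TRBV13-3 TRBJ2-5, 7160 reads: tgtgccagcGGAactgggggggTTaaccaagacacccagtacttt
dermal A, TRBV13-3 TRBJ2-2, 2542 reads: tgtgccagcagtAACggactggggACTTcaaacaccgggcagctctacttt
dermal A, TRBV13-3 TRBJ1-1, 2501 reads: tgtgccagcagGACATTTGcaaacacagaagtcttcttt
dermal A, TRBV13-2 TRBJ2-3, 1866 reads: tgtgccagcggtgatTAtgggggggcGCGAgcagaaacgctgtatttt
dermal A, TRBV13-3 TRBJ2-7, 1589 reads: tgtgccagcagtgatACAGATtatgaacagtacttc
dermal B, TRBV13-3 TRBJ2-7, 4441 reads: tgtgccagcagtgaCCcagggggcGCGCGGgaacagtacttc
dermal B, TRBV14 TRBJ1-1, 3828 reads: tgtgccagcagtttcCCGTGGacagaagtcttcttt
dermal B, TRBV13-3 TRBJ2-7, 3510 reads: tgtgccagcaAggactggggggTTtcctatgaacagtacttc
dermal B, TRBV5 TRBJ2-3, 2471 reads: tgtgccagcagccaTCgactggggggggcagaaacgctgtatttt
dermal B, TRBV26 TRBJ2-1, 2239 reads: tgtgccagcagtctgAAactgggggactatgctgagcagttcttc
TRBV13-3 is the segment of 4 of these 5 clonotypes in dermal A and 2 of 5 in dermal B, and no CDR3 is the same in both.

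Dermal reads were concentrated in few clonotypes. The libraries had similar depth, with 52910 reads in dermal A, 41602 in dermal B and 52498 in the lymph node. The largest clonotype held 13.5% of the dermal A reads (exact 95% interval 13.2 to 13.8%), 10.7% of the dermal B reads (10.4 to 11%) and 0.250% in the lymph node. The 10 largest together took 43.3% and 62.6% of dermal reads and 0.539% of lymph node reads. Clonotypes above 1% of reads numbered 30 in dermal A, 26 in dermal B and 0 in the lymph node. The 30 in dermal A used 12 different TRBV segments and so did the 26 in dermal B. Of the lymph node clonotypes, 13896 had a single read, so that list was not exhausted at this depth. No molecular identifiers are named, so reads are not counts of molecules and every interval covers counting error only. In bulk samples, more cells of a clone and more receptor RNA per cell cannot be told apart.

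Some listed clonotypes stood apart, and the results that rest on them are given with and without them. Near variants lay within 2 bases of a clonotype of equal length with at least 20 times their reads. There were 33 in dermal A and 11 in dermal B, with 0.123% and 0.351% of reads, and 0 in the lymph node. A clonotype needs at least 20 reads to have a near variant, which 89 clonotypes in dermal A, 39 in dermal B and only 3 in the lymph node had, so this removal acts almost entirely on dermis. In 52 clonotypes of dermal A, 9 of dermal B and 1397 of the lymph node, the ends did not match the assigned segments. That is, fewer than 6 bases of the assigned TRBV or 8 of the TRBJ matched the reference, or the reference used held no such entry. These clonotypes made up 22.1%, 11.7% and 5.23% of the respective clonotypes, and 2.51%, 0.0216% and 3.64% of reads. What these sequences are was not tested, so their segment names are the deposited ones only. Incomplete CDR3 sequences numbered 12, 3 and 476. Trace clonotypes, which were at under 1% of their own share elsewhere in the same set of libraries, numbered 20, 5 and 15. With all 4 kinds removed, 146 clonotypes of dermal A, 58 of dermal B and 25281 of the lymph node were left, with 97.4%, 99.6% and 96.3% of reads. The library names in the labels put dermal A and the lymph node in the same set and dermal B in another, so the comparison of dermal B with the lymph node crosses sets.

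**Figure D1:**
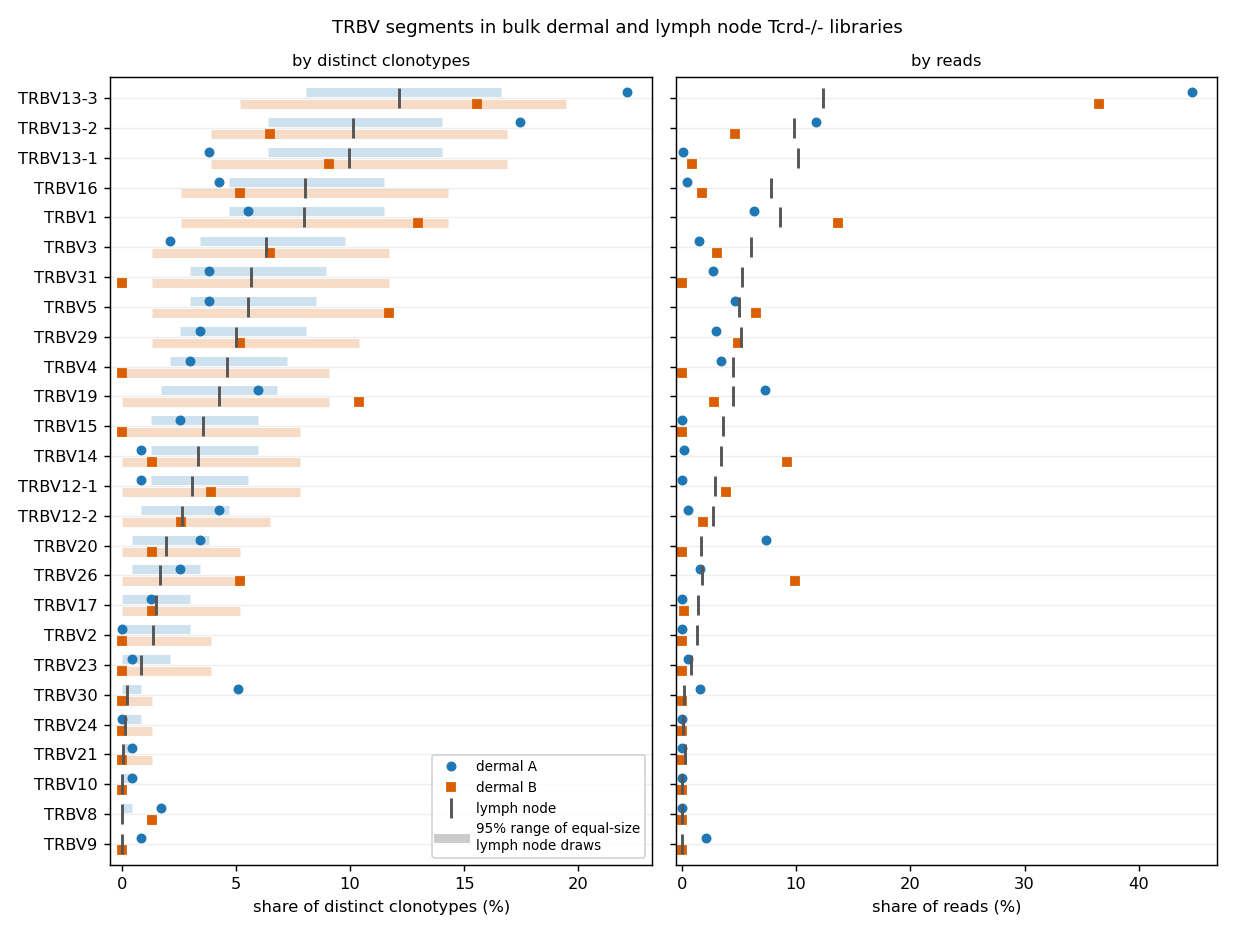
Share of distinct clonotypes (left, %) and of reads (right, %) for each TRBV segment in dermal A (circles), dermal B (squares) and the lymph node (ticks). Bars are the central 95% range of equal-size lymph node draws. TRBV13-3 lies right of its bar in dermal A and inside it in dermal B, and its dermal read shares, 44.6% and 36.5%, are far right of the lymph node tick at 12.3%.

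TRBV13-3 was the most used segment of both dermal libraries by reads. It is a member of the TRBV13 family, also called V-beta 8, and lies on chromosome 6 from 41130147 to 41130585 in the GRCm38 annotation. Its read share was 44.6% in dermal A, 36.5% in dermal B and 12.3% in the lymph node. By distinct clonotypes the shares were closer: 52 of 235 (22.1%, exact 95% interval 17.0 to 28.0%), 12 of 77 (15.6%, 8.32 to 25.6%) and 12.2%. Draws of as many clonotypes from the lymph node list would span 8.09 to 16.6% for dermal A and 5.19 to 19.5% for dermal B, in their central 95% range. Dermal A lay above this range and dermal B inside it. This range describes the lymph node list alone and holds neither the spread between animals nor that between libraries.

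The TRBV13-3 reads did not come from 1 clonotype. Its clonotypes above 1% of reads numbered 11 in dermal A and 7 in dermal B. Without its largest clonotype its read share was 36.0% in dermal A and 28.9% in dermal B. In the lymph node its largest clonotype had 13 reads. Across the removals of clonotypes described above, its clonotype share stayed between 21.8 and 26.0% in dermal A, above the range each time. In the fit over 6 libraries the log2 difference of dermal minus lymph node was 0.66 ± 0.73 (SE) by clonotypes and 1.72 ± 1.2 by reads. The edgeR quasi-likelihood adjusted p was 0.720 and 0.653.

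The rest of the TRBV13 family did not move together. TRBV13-2 made up 17.4% of clonotypes in dermal A, above the draw range of 6.38 to 14.0%. It made up 6.49% in dermal B, inside its range of 3.90 to 16.9%, and 10.1% in the lymph node. TRBV13-1 made up 3.83% in dermal A, below the same range of 6.38 to 14.0%, 9.09% in dermal B and 9.94% in the lymph node. By reads TRBV13-1 was low in both dermal libraries, at 0.115% and 0.897% against 10.2% in the lymph node. The 3 members together made up 43.4%, 31.2% and 32.2% of clonotypes. The family was above its range (26.4 to 38.3%) in dermal A and inside it (22.1 to 42.9%) in dermal B.

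The MAIT-associated pair, TRBV19 and TRBV13-3, was above the draw range in both dermal libraries. Together they made up 66 of 235 clonotypes in dermal A (28.1%, range 11.9 to 21.3%) and 20 of 77 in dermal B (26.0%, range 9.09 to 24.7%). The lymph node value was 16.4%. In dermal B the value exceeded the upper end of the range, 19 clonotypes, by a single clonotype. In dermal A TRBV13-3 alone was above its own range and TRBV19, at 5.96%, was inside. In dermal B it was the reverse, with TRBV19 at 10.4% (8 clonotypes) against an upper end of 9.09% and 4.26% in the lymph node. With at least 2 reads, and without clonotypes whose ends did not match, TRBV19 in dermal B was at the upper end of its range. By reads the pair took 51.9%, 39.3% and 16.8%, of which TRBV19 took 7.26%, 2.86% and 4.49%. With all 4 kinds of clonotype removed the shares were 32.9% in dermal A (range 11 to 22.6%) and 29.3% in dermal B (6.90 to 25.9%). The segments of this list were chosen with results of these data known, and the list has no test of its own.

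The NKT-associated segments TRBV13-2, TRBV29 and TRBV1 were inside the draw range as a list when all clonotypes were counted. They made up 26.4% of clonotypes in dermal A, 24.7% in dermal B and 23.1% in the lymph node, with draw ranges of 17.9 to 28.5% and 14.3 to 32.5%. Without clonotypes whose ends did not match, the list was above its range in dermal A, at 55 of 183 (30.1%, range 17.5 to 29.5%). After all 4 removals it was inside (25.3%, range 16.4 to 30.1%). TRBV1 made up 5.53%, 13.0% and 7.99% of clonotypes. TRBV29 made up 3.40%, 5.19% and 5.00%. The TRBV12 family, also called V-beta 5, was inside its ranges too, with TRBV12-1 and TRBV12-2 together at 5.11%, 6.49% and 5.71%. TRBV12-1 alone was below its range in dermal A, at 0.851% against a lower end of 1.28%.

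Some segments with high read shares in dermal B rested on few clonotypes. Over both dermal libraries, the highest mean read shares after TRBV13-3 were those of TRBV1, TRBV13-2, TRBV26 and TRBV5. TRBV1 had a read share of 6.29% in dermal A, 13.7% in dermal B and 8.61% in the lymph node. It had 13 clonotypes in dermal A and 10 in dermal B. TRBV13-2 took 11.8%, 4.63% and 9.80%, with 41 clonotypes in dermal A and 5 in dermal B. TRBV26 took 1.57%, 9.94% and 1.74%, and its largest dermal B clonotype held 54.1% of its reads there. TRBV5 took 4.69%, 6.53% and 5.00%, with 2471 of its 2716 dermal B reads in 1 clonotype. TRBV14, named after its values were seen, took 9.20% of dermal B reads with a single clonotype.

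Across all 26 TRBV segments, 1 (3.85%) was outside the draw range on the same side in both dermal libraries. In dermal A 10 (38.5%) and in dermal B 3 (11.5%) were outside. The segment shared by both was TRBV8, a pseudogene in the annotation, with 4 clonotypes of 1 read each in dermal A and 1 of 1 read in dermal B. The reference held no usable TRBV8 end, so none of these could be matched. In dermal B the others were TRBV19, above, and TRBV31, with 0 of 77 clonotypes (which allows a share of up to 3.90%) against 5.68% in the lymph node. With at least 2 reads or after all 4 removals, the range for TRBV31 in dermal B reached 0 and its value was inside.

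The edgeR quasi-likelihood test on clonotypes called 2 of 24 TRBV segments (8.33%), both higher in dermis. TRBV8 had a log2 difference of 6.83 ± 1.72 (SE) and an adjusted p of 0.00413. TRBV30 had 3.78 ± 1.27 and an adjusted p of 0.0487. TRBV8 had 3 clonotypes with 29 reads in the lymph node, and only clonotypes of 1 read each in dermis. By reads its share was higher in the lymph node, at 0.0552%, than in dermal A (0.00756%) or dermal B (0.00240%). TRBV30 had 12 clonotypes in dermal A, 0 in dermal B and 64 in the lymph node. Of the 12, 11 had ends that did not match TRBV30, with 831 of its 834 reads, against 3 of 64 in the lymph node. Whether these 11 clonotypes are TRBV30 transcripts is not known, and the TRBV30 call rests on them. Removing clonotypes whose ends did not match takes out every TRBV8 clonotype by definition, so that removal is no check of the TRBV8 call. Without the clonotypes whose ends did not match, 0 of 23 segments were called and 0 had an unadjusted p under 0.05. Without dermal A the count was also 0. With the library set as a block, which leaves 1 residual degree of freedom, edgeR called 1, TRBV8, still higher in dermis. The lone lymph node library was assumed to vary like the skin libraries, and with 2 dermal libraries against 1 a permutation test could not give a p below 0.333.

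By reads, edgeR called 0 of 26 TRBV segments (0%), with 2 at an unadjusted p under 0.05. DESeq2 called 1, TRBV9, which had 2.17% of reads in dermal A and 0 in the other 2 libraries. This is an annotated pseudogene, and 1146 of its 1147 reads belonged to 1 in-frame clonotype. With the dermal and lymph node libraries alone in the fit, edgeR called TRBV13-3, higher in dermis. That fit took its spread from the 2 dermal libraries only, against a lone lymph node library, so little weight can be put on the call. With the library set as a block it called 3, TRBV8, TRBV21 and TRBV24, all lower in dermis by reads.

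**Figure D2:**
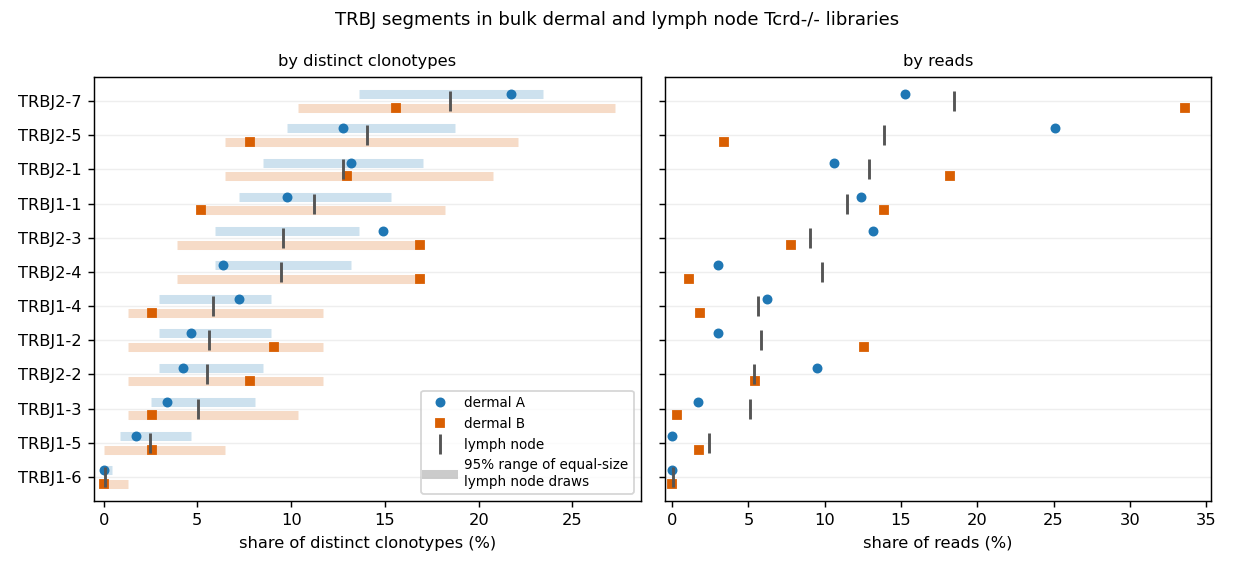
Share of distinct clonotypes (left, %) and of reads (right, %) for each TRBJ segment in dermal A (circles), dermal B (squares) and the lymph node (ticks), with bars for the central 95% range of equal-size lymph node draws. TRBJ2-3 lies right of its bar in dermal A and at its end in dermal B, while TRBJ2-5 and TRBJ2-7 differ between the dermal libraries mainly by reads.

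TRBJ use by clonotypes was close to that of the lymph node. The TRBJ1 cluster, which lies after TRBD1, made up 26.8% of clonotypes in dermal A, 22.1% in dermal B and 30.2% in the lymph node, inside the draw ranges of 24.3 to 36.2% and 20.8 to 40.3%. The TRBJ2 cluster, after TRBD2, took the rest. Of 12 TRBJ segments, 1 (8.33%) was outside the range in dermal A, 0 (0%) in dermal B and 0 (0%) in both. That segment was TRBJ2-3, at 14.9% in dermal A (range 5.96 to 13.6%), 16.9% in dermal B (upper end 16.9%) and 9.56% in the lymph node. Without near variants TRBJ2-3 was at 13.9% in dermal A, at the upper end of its range, and 13.6% in dermal B, inside. After all 4 removals it was above the range in dermal A (16.4%, range 4.79 to 14.4%) and inside in dermal B (15.5%). Without trace clonotypes it was above in both, at 15.8% and 18.1%.

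By reads, some TRBJ shares differed widely between the dermal libraries. TRBJ2-5 had a read share of 25.1% in dermal A, 3.42% in dermal B and 13.9% in the lymph node. Without the largest clonotype of dermal A its share there was 13.4%. TRBJ2-7 took 15.3%, 33.6% and 18.5%. TRBJ2-4 was low in both dermal libraries by reads, at 3.04% and 1.12% against 9.79%. By clonotypes it made up 6.38%, 16.9% and 9.48%, with dermal B at the upper end of its range (16.9%). The edgeR test called 0 of 12 TRBJ segments (0%) by clonotypes and 0 of 12 (0%) by reads, with 0 at an unadjusted p under 0.05 in each. DESeq2 called 0 in each, with 1 by reads at an unadjusted p under 0.05.

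Fewer V-J combinations were seen in dermis than in lymph node draws of the same size. Dermal A had 99 different TRBV-TRBJ pairs where 120 would be expected in a draw (95% range 110 to 130), and dermal B had 50 where 58.9 would be expected (52.7 to 65.1). In dermal A the deficit remained without near variants (99 against 101 to 120) and after all 4 removals (78 against 83.2 to 100.2). In dermal B it did not: 50 pairs lay inside the range of 46.7 to 57.9 without near variants.

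Of 271 pairs, 0 (0%) were above or below the draw range in both dermal libraries, while 18 (6.64%) were outside it in dermal A and 7 (2.58%) in dermal B. The pairs with most clonotypes in dermal A were TRBV13-2 with TRBJ2-3 (13, upper end 6), TRBV13-3 with TRBJ2-3 (10, upper end 6) and TRBV13-2 with TRBJ2-7 (10, upper end 9). In dermal B these 3 pairs had 2, 1 and 1 clonotypes. The most frequent pairs of dermal B were TRBV5 with TRBJ2-3 (6, upper end 2), TRBV13-1 with TRBJ2-4 (4, upper end 3) and TRBV19 with TRBJ2-4 (4, upper end 2). In dermal A they had 2, 0 and 2. Without near variants TRBV13-2 with TRBJ2-3 kept 9 clonotypes in dermal A (upper end 6) and TRBV5 with TRBJ2-3 kept 3 in dermal B (upper end 2). TRBV13-1 with TRBJ2-4 kept 2 in dermal B, inside its range (upper end 3), and all 4 of its clonotypes were versions of the cysteine sequence described below. The other 3 pairs stayed above their ranges without near variants. With at least 2 reads, TRBV13-2 with TRBJ2-7 in dermal A (5, upper end 7) and TRBV19 with TRBJ2-4 in dermal B (1, upper end 1) were inside. TRBV13-2 with TRBJ2-7 was also inside without trace clonotypes (9, upper end 9). TRBV19 with TRBJ2-4 held only 0.0505% of dermal B reads.

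**Figure D3:**
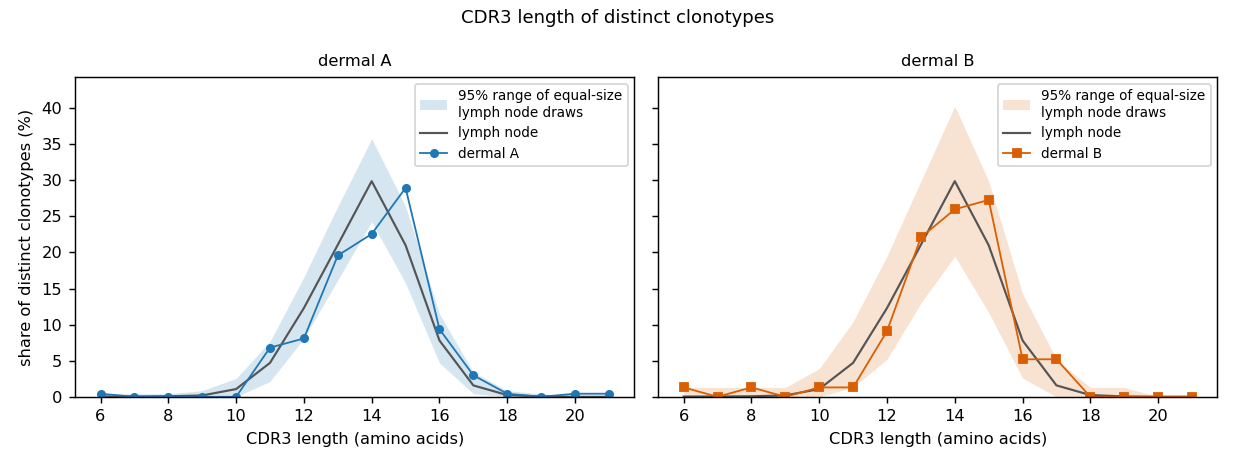
Share of distinct clonotypes (%) at each CDR3 length (amino acids) in dermal A and dermal B, with the lymph node as a line and the central 95% range of equal-size lymph node draws shaded. The most frequent length is 15 in both dermal libraries and 14 in the lymph node; a few lymph node clonotypes shorter or longer than the axis are not drawn.

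CDR3 loops were slightly longer in dermal A. Mean length was 14.0 ± 0.109 amino acids (SE over 235 clonotypes) in dermal A, 13.9 ± 0.203 (SE over 77) in dermal B and 13.8 in the lymph node. Dermal A was above its draw range of 13.6 to 13.95, and dermal B was inside 13.4 to 14.1. Clonotypes of 15 residues made up 28.9% in dermal A (range 15.7 to 26.4%), 27.3% in dermal B (11.7 to 29.9%) and 21.0% in the lymph node. Those of 14 residues made up 22.6% in dermal A, below the lower end of 24.3%, 26.0% in dermal B and 29.9% in the lymph node. By reads the means were 14.4 in dermal A, 13.7 in dermal B and 13.7 in the lymph node. Dermal A stayed above its range under each of the 6 removals, with means of 14.03 to 14.2.

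**Figure D4:**
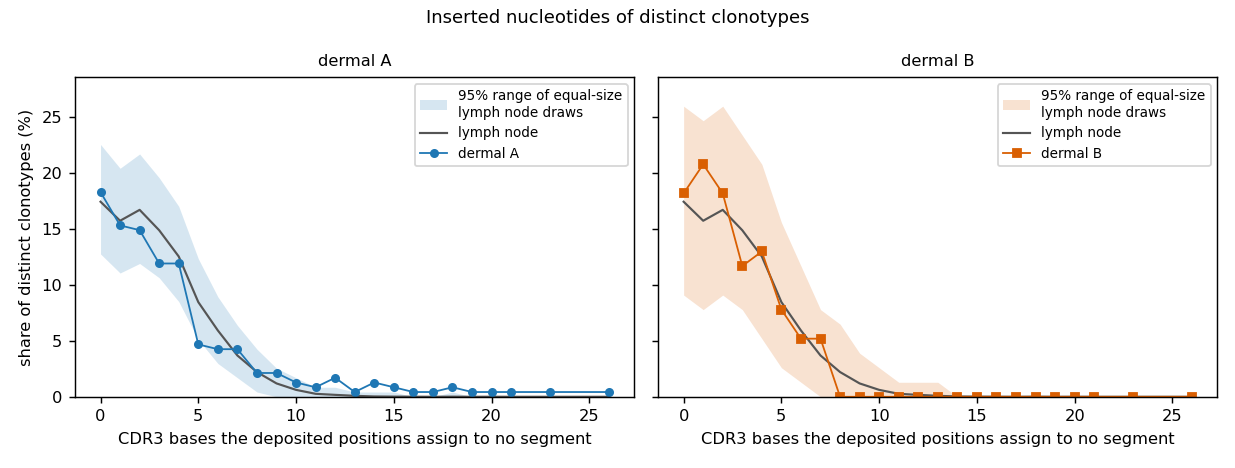
Share of distinct clonotypes (%) with each number of CDR3 bases that the deposited positions assign to no segment, in dermal A and dermal B, with the lymph node as a line and the central 95% range of equal-size lymph node draws shaded. Dermal A has a tail beyond 10 bases that dermal B lacks; 1 lymph node clonotype with 73 such bases is not drawn.

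By the deposited positions, the share of junctions without inserted bases was inside the lymph node draw range in both dermal libraries. Clonotypes with no base outside the assigned segments numbered 43 in dermal A (18.3%, exact 95% interval 13.6 to 23.8%) and 14 in dermal B (18.2%, 10.3 to 28.6%). The lymph node share was 17.4%, and both dermal values were inside the draw ranges of 12.8 to 22.6% and 9.09 to 26.0%. By reads the share was 23.1% in dermal A, 8.88% in dermal B and 18.7% in the lymph node. By exact match, only clonotypes with a usable reference were counted: 201 in dermal A, 72 in dermal B and 25999 in the lymph node. Of these, 9.95% in dermal A (range 2.99 to 9.45%, above), 8.33% in dermal B (1.39 to 11.1%) and 5.85% in the lymph node had no inserted base. Of all 235 dermal A clonotypes the same 20 were 8.51%, inside the range of 2.98 to 8.94%. Among those with a usable reference, the dermal A value was also inside its range without trace clonotypes (4.97%, range 2.76 to 9.39%) and after all 4 removals (6.16%, range 2.74 to 10.3%). As shares of all reads the exact-match values were 3.6%, 3.89% and 6.68%, lower in dermis, where the deposited positions put dermal A higher.

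Dermal A held more junctions with many inserted bases. The mean number was 3.98 ± 0.299 (SE) in dermal A, above the draw range of 2.59 to 3.21, and 2.51 ± 0.234 in dermal B, inside 2.35 to 3.44, with 2.90 in the lymph node. At least 10 inserted bases were found in 24 clonotypes of dermal A (10.2%, upper end 2.98%), 0 of dermal B and 1.21% of lymph node clonotypes. Of those 24, 18 had ends that did not match the assigned segments, so their inserted bases are uncertain. Without such clonotypes the mean in dermal A was 2.83, under the lymph node mean of 2.88, and 6 of 183 clonotypes (3.28%, upper end 2.73%) had at least 10.

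The deposited positions assigned more bases to segments than exact matching did. Counted by exact match to the reference, inserted bases equalled the deposited number in 39.8% of dermal A, 43.1% of dermal B and 44.1% of lymph node clonotypes with a usable reference. It was higher than the deposited number in 60.2%, 54.2% and 52.5%. The largest clonotype of dermal A had 0 inserted bases by the deposited positions and 5 by exact match, the capitals of its sequence. By exact match the means were 6.35 in dermal A (range 4.2 to 5.16), 5.04 in dermal B (3.88 to 5.48) and 4.68 in the lymph node. After all 4 removals they were 4.93 (3.93 to 4.91), 3.97 (3.65 to 5.19) and 4.42.

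With all clonotypes counted, TRBD use in dermal A differed from the lymph node more than that in dermal B. A TRBD2 segment was named in 34.9% of dermal A clonotypes (range 23.0 to 34.5%), 28.6% in dermal B and 28.7% in the lymph node. The dermal A value was inside its range without near variants (33.2%, range 22.8 to 35.1%), without trace clonotypes (34.0%) and after all 4 removals (34.9%, range 21.2 to 36.3%). No TRBD was named in 23.0%, 26.0% and 30.4%, which was below the range (24.7 to 36.2%) in dermal A, also after all 4 removals (21.2%, range 23.3 to 37.7%). With at least 2 reads it was below in both, at 20.7% in dermal A (lower end 23.6%) and 14.6% in dermal B (lower end 18.75%), against 30.8%. Exact TRBD matches covered 6.47 bases on average in dermal A (range 5.04 to 6.10), 6.21 in dermal B (4.68 to 6.45) and 5.57 in the lymph node. After all 4 removals the dermal A value was 6.50 (range 4.94 to 6.18). By exact match, 3.52, 3.6 and 3.26 TRBV bases were missing, inside both ranges. The TRBV bases kept were below the range in dermal A (12.79, range 13.02 to 13.69), but inside it without near variants (13.09, range 13.00 to 13.72). TRBJ had lost 4.13 bases in dermal A, above the range of 2.77 to 3.62, but 3.61 without near variants, inside it.

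**Figure D5:**
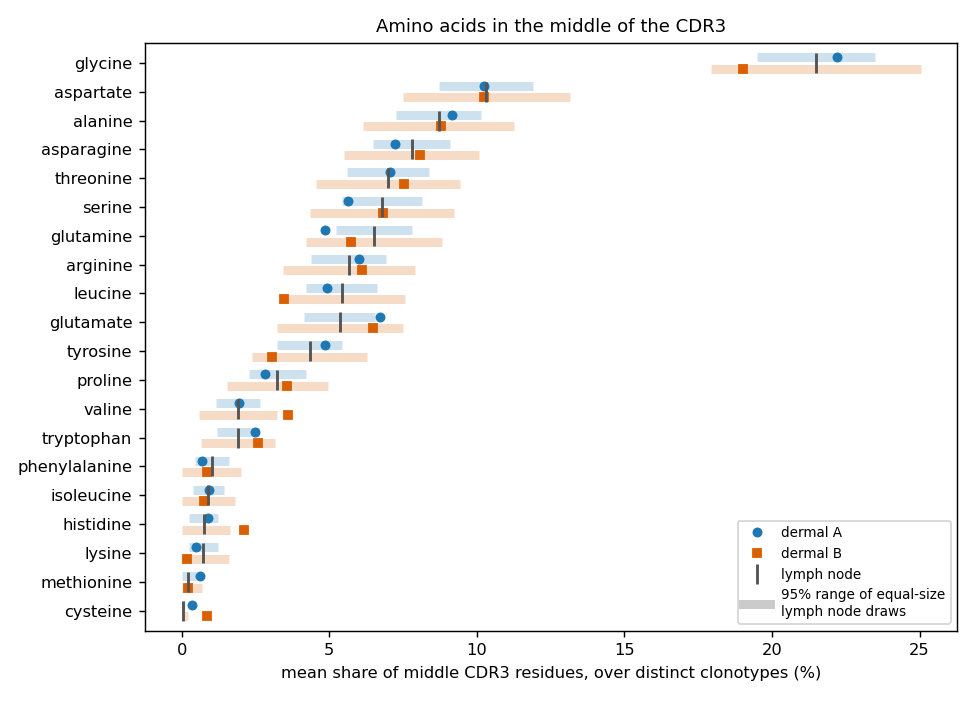
Mean share (%) of each amino acid among the middle CDR3 residues, over distinct clonotypes, in dermal A (circles), dermal B (squares) and the lymph node (ticks), with bars for the 95% range of equal-size lymph node draws (drawn from 0 where the lower end is negative). Cysteine is the only 1 of 20 residues that lies right of its bar in both dermal libraries.

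Amino acid composition was compared over the middle residues, leaving out 4 at each end of the CDR3, which are mostly encoded by TRBV and TRBJ. Of 20 residues, 4 (20%) lay outside the draw range in dermal A, 3 (15%) in dermal B and 1 (5.00%) on the same side in both, which was cysteine. In dermal A glutamate was higher, at 6.73% against 5.35% in the lymph node, methionine higher, at 0.609% against 0.213%, and glutamine lower, at 4.86% against 6.51%. In dermal B histidine was at 2.11% against 0.749% and valine at 3.61% against 1.9%. Without near variants glutamate and methionine were inside the range in dermal A. After all 4 removals glutamate was above it (6.99%, range 3.83 to 6.87%), methionine was inside, and valine in dermal B was inside (3.07%, upper end 3.40%). Hydropathy of positions 6 and 7, on the Kyte-Doolittle scale, averaged -0.997 in dermal A, -1.36 in dermal B and -1.15 in the lymph node, inside both ranges. By reads it was -0.776, -1.03 and -1.16.

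A cysteine among the middle residues was seen in 5 clonotypes of dermal A, 5 of dermal B and 45 of the lymph node. These were 2.13% (exact 95% interval 0.694 to 4.90%), 6.49% (2.14 to 14.5%) and 0.169% (0.123 to 0.226%) of clonotypes. Lymph node draws would hold 0 to 2 such clonotypes for dermal A and 0 to 1 for dermal B. By reads the shares were 2.34%, 4.21% and 0.139%. Cysteine was singled out after its values were seen. Other Tcrd-/- skin libraries also held such clonotypes: 1.89%, 4.37% and 5.56% in epidermal A, B and C. In dermal cells sorted as CD103+ or CD103hi the shares were 1.22% and 3.50%. By reads they were 0.820%, 3.57% and 3.37% in epidermal A, B and C, and 0.299% and 2.53% in CD103+ and CD103hi. Near variants were not removed in these other skin libraries. WT dermal had 0 of 702, which by the limit of 3 counts allows a share of up to 0.427%, above the lymph node share.

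In each dermal library 1 clonotype carried most of these reads, and both are shown with the cysteine codon tgt among the bases in or beside the capitals. The dermal B one reads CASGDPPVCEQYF in amino acids, and its cysteine codon ends in a base of TRBJ2-7.
dermal A, TRBV19 TRBJ2-1, 1232 reads: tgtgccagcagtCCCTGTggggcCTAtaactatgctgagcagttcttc
dermal B, TRBV13-2 TRBJ2-7, 1440 reads: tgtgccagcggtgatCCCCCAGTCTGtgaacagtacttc
dermal B, TRBV13-1 TRBJ2-4, 292 reads: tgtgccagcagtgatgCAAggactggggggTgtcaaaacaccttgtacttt
The other 4 cysteine clonotypes of dermal A had 1 or 2 reads each. The other 4 of dermal B all used TRBV13-1 and TRBJ2-4, and the largest of them is the third sequence. Without near variants 2 of 202 clonotypes remained in dermal A, inside the range of 0 to 2, and 3 of 66 in dermal B, above the range of 0 to 1. After all 4 removals 2 of 146 in dermal A and 3 of 58 in dermal B were above ranges of 0 to 1. Of the 3 in dermal B, 2 were versions of the TRBV13-1 TRBJ2-4 sequence with 292 and 15 reads, a ratio just under the 20 that defines a near variant. Of the 45 lymph node clonotypes, 11 used TRBJ2-7, the segment of 4924 of all 26693 lymph node clonotypes (18.4%). A link between cysteine and TRBJ2-7 was not tested.

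Dermal A shared clonotypes with the lymph node library, and dermal B hardly did. Of the 235 clonotypes of dermal A, 25 (10.6%, exact 95% interval 7.0 to 15.3%) were listed in the lymph node with the same V, J and nucleotide CDR3. They held 27.1% of dermal A reads and 0.448% of lymph node reads, where 131 of the 235 reads belonged to 1 clonotype with an incomplete CDR3. Of the 77 in dermal B, 1 (1.30%, 0.0329 to 7.02%) was shared, with a single read and an incomplete CDR3. By amino acid CDR3 the counts were 34 of 230 (14.8%) and 5 of 75 (6.67%).

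Among the 10 largest clonotypes of dermal A, 3 were listed in the lymph node. The TRBV13-3 TRBJ2-5 clonotype had 7160 reads in dermal A and 11 in the lymph node. The TRBV13-2 TRBJ2-3 clonotype had 1866 and 5, and TRBV4 with TRBJ2-2, read as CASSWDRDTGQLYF, had 1463 and 3. Of the 25 shared clonotypes, 9 had more than 100 times the lymph node read share in dermal A. By definition these 9 met the trace rule in the lymph node, where 11 of the 25 met it. After all 4 removals 13 of 146 were shared, with 1.59% of dermal A reads. The trace rule takes clonotypes that are far larger in dermal A off the lymph node list. The drop in reads thus follows from the rule and is no check of the overlap. Dermal A and the lymph node belong to the same library set and dermal B does not. Overlap with other skin libraries was also larger within sets. Dermal A shared 27 clonotypes with epidermal A, of its own set, 20 of them trace in dermal A, and 1 with WT dermal, of the other set. Dermal B shared 12 with WT dermal and 9 with epidermal C, both of its own set, and 1 with epidermal A. The part of the library set in the overlap with the lymph node was not tested. The dermal libraries shared 0 clonotypes with each other, by nucleotide or by amino acid CDR3.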

How the data were processed

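Per the series' design text and the labels' protocols, the method was 5′ RACE on RNA from the sorted cells, then PCR of Tcrb transcripts and MiSeq sequencing. Which caller, correction of errors and build the authors used is not given in the sources used here. Per the file headers, the deposited tables give a read count per clonotype, the fraction of the library's reads (a deposited fraction, here multiplied into percent) and the V, D and J positions in the CDR3. All clonotypes were in frame without stop codons, so 0 were removed.

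Shares were computed by reads and by distinct clonotypes. Draw ranges were computed rather than drawn: hypergeometric for shares, and the error of a mean of n of 26693 clonotypes for means. Intervals are exact (Clopper-Pearson, 95%). A count of 0 allows up to 3 counts. A range is no test and has no p. Inserted bases are CDR3 bases that no deposited segment position covers. For exact matching, TRBV, TRBJ and TRBD (at least 5 bases) came from GENCODE M21 transcripts.

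Segments with at least 10 counts entered a test in R 4.3.3 with edgeR 4.0.16, its older quasi-likelihood fit, a common dispersion, library totals and Benjamini-Hochberg adjustment at 0.05. The fit held 2 dermal, 1 lymph node and 3 epidermal Tcrd-/- libraries. It was run on simulated data in which all libraries had the same common dispersion. That run could not check whether the lymph node library varies like the skin libraries. Labels do not say that libraries came from separate animals, so each p-value reflects only how far these libraries vary, which may be technical. Alternatives used DESeq2 1.42.0, TMM, no filter, the newer fit, fewer libraries and the removals. Near variants, unmatched ends, the 4 removals together, exact matching and the library-set block were added after seeing the data.

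Named segments were those past the edgeR threshold, outside the draw range on the same side in both dermal libraries, among the 5 with the highest mean dermal read share, or in the lists (NKT-associated, MAIT-associated, TRBV13, TRBV12, TRBJ clusters). Named pairs were those above the range in both dermal libraries and the 3 with most clonotypes in each. Named clonotypes were the 5 with most reads in each. Other named items were chosen after their values were seen. The samples and lists were chosen with earlier results of these data known.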

Additional observations from a re-analysis of the deposited data

How the results depend on the processing

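Replicate letters could not pair the samples, since the lymph node library carries none. With the library set as a replicate block (1 residual degree of freedom), edgeR called 1 TRBV segment by clonotypes, 3 by reads and 0 TRBJ segments by either. The 2 TRBV segments called by clonotypes became 1 with TMM factors, DESeq2 or without trace clonotypes. They became 0 with the dermal and lymph node libraries alone, with at least 2 reads, with complete CDR3 sequences, without clonotypes whose ends did not match and with all 4 removals. Leaving out 1 library gave 0 to 2: 0 without dermal A, 1 without any of the 3 epidermal libraries and 2 without dermal B. The 0 TRBV segments called by reads became 1 with DESeq2 and 1 without the epidermal libraries. The 0 TRBJ segments called by reads ranged from 0 to 1 when 1 library was left out: without epidermal C, TRBJ1-6 was called lower.

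Weighted by reads, dermal minus lymph node moved to 0.708 amino acids for length in dermal A, 32.3 and 24.1 percentage points for TRBV13-3 in dermal A and B, 0.389 for hydropathy in dermal A, 0.300 inserted bases in dermal A and -9.78 percentage points for junctions without inserted bases in dermal B. The inserted-base difference of dermal A, 1.08, was 0.301 with at least 2 reads, 0.213 with all 4 removals and reversed to -0.0578 without clonotypes whose ends did not match. In dermal B it was 0.360 by exact matching, against -0.391. The share also listed in the lymph node was 27.1% of reads in dermal A. Without trace clonotypes, a removal that lowers it by definition, it was 6.51% of clonotypes. In dermal B it was 0.00240% of reads, and 0% with at least 2 reads, with complete CDR3 sequences, without clonotypes whose ends did not match and with all 4 removals. Beyond the library or clonotypes left out, the cause was not tested. Dermal B, with 77 clonotypes, gives wide ranges, and a difference of the size seen in dermal A would lie outside them for some measures only. The dermal A mean length (14.04) and TRBD2 share (34.9%) lay inside the dermal B ranges, with upper ends of 14.09 and 39.0%. The dermal A TRBV13-3 share of clonotypes (22.1%) and mean inserted bases (3.98) lay above the dermal B upper ends of 19.5% and 3.44.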
